A study of Mus musculus with 2 samples.

Results

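The genes described here read at least 3-fold lower in 1 clone of mouse embryonic stem (ES) cells, the clone carrying Nr5a2-EGFP, than in each of the other clones of the study. ZHBTc4 is an ES line in which both Oct4 alleles are disrupted and Oct4 comes from a transgene that doxycycline turns off. Each of the 3 clones carried a pCAG-IP plasmid, which expressed EGFP in clone #2-5, Oct4-EGFP in clone #9 and Nr5a2-EGFP in clone #26, and all were given doxycycline before harvest. They were grown without feeder cells in 15% serum and 1000 IU/ml of the cytokine LIF. RNA of the EGFP clone (labelled with Cy3) was hybridised against RNA of the Nr5a2-EGFP clone (Cy5) on 1 Agilent array, called the EGFP array here, and RNA of the Oct4-EGFP clone (Cy3) against the Nr5a2-EGFP clone (Cy5) on another, the Oct4 array. Each transgene was represented by 1 monoclonal clone and each pair by 1 array with no dye swap, so the spread between cultures is unknown and nothing could be tested. The Nr5a2-EGFP clone was in Cy5 on both arrays, so a difference of the clone and a difference of the dye cannot be told apart.

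A probe was a member when its log2 ratio of Cy5 over Cy3 processed signal was at or below -1.58, that is at least 3-fold lower, on both arrays, its Cy3 signal lay well above background on both, and it did not map to the sex chromosomes. The rule left 321 probes of 304 genes, out of 23564 autosomal genes with such a Cy3 signal (1.29%) and 31829 gene names on the arrays. On the EGFP array alone 735 of the genes (3.12%) were at least 3-fold lower, and on the Oct4 array 1063 (4.51%). Outside the rule, 11 of 1170 probes on chromosome X (0.94%) and 0 of 78 on chromosome Y passed the same threshold. The mirrored rule, at least 3-fold higher on both arrays, gave 204 of 23766 genes (0.858%). The members were chosen by their ratios on both arrays, so the folds below describe them and carry no further support. All 304 members passed the Cy3 filter because the rule required it.

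As background, loss of Oct4 turns ES cells toward trophoblast. Nr5a2 is an orphan nuclear receptor that can take the place of Oct4 in reprogramming, and it binds DNA as a monomer at a site that the related receptor Esrrb also recognises. A small and changing share of ES cells passes through a state resembling the 2-cell embryo, marked by the Zscan4 genes, which lie in a cluster of near-identical copies. In RNA from a whole culture, fewer cells of a type and less RNA per cell cannot be told apart.

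The members had a median log2 ratio of -2.24 on the EGFP array and -2.27 on the Oct4 array, against 0.03 on both for all tested probes. Many were dim: their median Cy3 signal was 390 in the EGFP clone and 523 in the Oct4-EGFP clone, against 1190 and 1076 for tested probes. In the Nr5a2-EGFP clone the Cy5 signal was well above background on both arrays for 174 genes, on 1 array for 36 and on neither for 94. Of all tested probes 97.4% were above background in Cy5 on both arrays. Where Cy5 was not well above background only a bound holds, printed below as "at least N-fold": the Cy3 level against the higher of the Cy5 level and the lowest Cy5 level well above background, after loess and Aquantile normalization, open to dye bias.

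Among the 174 genes with Cy5 above background on both arrays, 69 were at least 4-fold lower on both arrays, 7 at least 8-fold and 2 at least 10-fold. The size of the difference depended on how background was handled. With normexp background correction and loess in place of the deposited processed signals, 101 of the 304 genes kept a 3-fold difference on both arrays, and 94 of these had Cy5 above background on both. The genes measured in both channels moved from a median of -2.05 to -1.75 on the EGFP array, and those with Cy5 above background on neither array from -2.49 to -0.82.

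**Figure D1:**
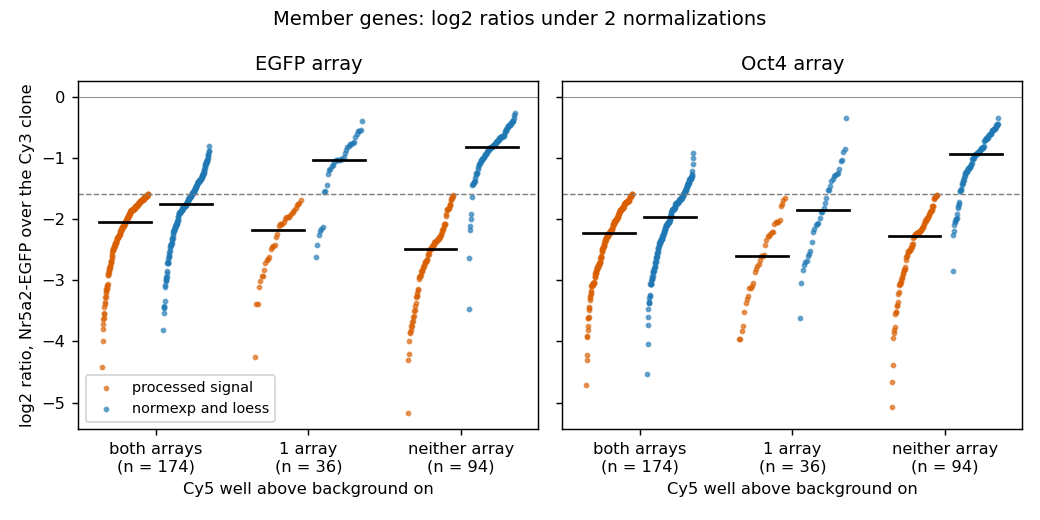
Log2 ratio of the Nr5a2-EGFP clone over the EGFP clone (left) and over the Oct4-EGFP clone (right) for each member gene, 1 point per gene sorted by value, split by the arrays on which Cy5 was well above background. Black bars are medians, orange points use the deposited processed signals and blue points normexp and loess, and the dashed line is a 3-fold lower level. The 94 genes with Cy5 above background on neither array lay mostly above the line after loess, with medians of -0.82 and -0.94, while the 174 genes measured on both kept medians of -1.75 and -1.96.

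Facts about the clones touch all members. Both Nr5a2 probes had ratios below 0, from -0.59 to -1.12 on the log2 scale. The Oct4 probe (Pou5f1) read 118 in the EGFP clone and 116 in the Oct4-EGFP clone, so the clone named for Oct4-EGFP showed no higher signal there. The sources do not say which parts of the transcripts the plasmids carry, and the labels are therefore not checked by them. All 7 fixed ES cell markers were above background in the EGFP and Oct4-EGFP clones. Their summed signal was 136627 in the EGFP clone against 87891 in the Nr5a2-EGFP clone on the same array, and 179768 in the Oct4-EGFP clone against 69799. Nanog alone made up 105648 and 59608 of the sums on the EGFP array, where Tdgf1, Zfp42 and Sox2 read higher in the Nr5a2-EGFP clone. Esrrb, a member chosen by the rule for its low ratios, made up 56017 and 3996 of the sums on the Oct4 array. The rule thus fixed part of the fall in these sums. The 9 trophoblast markers summed to 76616 against 80361 on the EGFP array and to 16709 against 65032 on the Oct4 array, so that the Oct4-EGFP clone stood apart; Tpbpa was not well above background in any channel. The 7 feeder fibroblast markers summed to between 6340 and 9339 in the 4 channels, with Postn and Lum not well above background in any. The part of other cell types in the results was not tested.

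Pluripotency genes contributed 3 members of the 37 tested in that list, against 1.29% of all tested genes: Esrrb, Fgf4 and Gdf3. Esrrb, an orphan nuclear receptor of the naive ES cell network, had a processed signal of 8969 in the EGFP clone and 1828 in the Nr5a2-EGFP clone on the EGFP array, and of 56017 in the Oct4-EGFP clone and 3996 in Cy5 on the Oct4 array. Its probe lies at chr12:87862509-87862568 of mm9, the build of the array's probe positions. It was 4.91-fold lower than in the EGFP clone and 14.0-fold lower than in the Oct4-EGFP clone. Fgf4, the growth factor that ES cells secrete to drive ERK signalling, read 9430 against 2067 and 80800 against 12175. Its probe lies at chr7:152051089-152051148. That is 4.56-fold lower on the EGFP array and at least 5.77-fold lower on the Oct4 array, where its Cy3 spot was saturated. In Cy3 both genes were brighter with Oct4-EGFP than with EGFP. For Fgf4 the Nr5a2-EGFP clone read 12175 on the Oct4 array, above the 9430 of the EGFP clone, so its place below the EGFP clone holds on the EGFP array alone.

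Gdf3, a TGF-beta family ligand, read 150 against 48.2 and 2275 against 252 at its member probe. Its other probe gave 8934 against 7654 and 5625 against 6012, log2 ratios of -0.22 and 0.10, so the probes of this gene disagreed. Most pluripotency genes were no members: the list's median ratio was -0.16 on the EGFP array and -0.73 on the Oct4 array, 6 of 37 genes were at least 2-fold lower on the EGFP array (7.62% of all tested genes) and 17 on the Oct4 array (8.87%). Nanog had -0.83 and -0.70. Etv5 (-0.90 and -0.74) and Fgfr1 (-0.88 and -0.71), genes of another list with similarly high signals, had close ratios. Whether such bright spots were near saturation was not tested. Sox2 had 0.07 and -1.95, Klf4 -0.10 and -2.17, and Zfp42 0.37 and -2.13, so for these genes the low reading was on the Oct4 array alone. Of the 27 tested genes in a list of known Nr5a2 targets 0 were members, which at the overall share of 1.29% says nothing about the list.

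The Nr5a2-EGFP clone was read on both arrays, and for Esrrb and Fgf4 its readings differed. Esrrb gave 1828 in Cy5 on the EGFP array and 3996 on the Oct4 array, and Fgf4 gave 2067 and 12175. Among the 174 members measured on both arrays, the normalized Cy5 readings were at least 2-fold apart in 11: Tcea3, 2900001G08Rik, Slc25a35, Sned1, Esrrb, Gdf3, Gm7325 (now Mymx), Zfp365, Ngfr, Spock2 and Fgf4, several of them named after their values were seen. In all 11 the higher Cy5 reading was on the array where Cy3 was also at least 2-fold higher. The limit given for Fgf4 also holds for Spock2, Ngfr and Gdf3. Their Cy5 signals on the Oct4 array (4320, 1624 and 252) lay above Cy3 of the EGFP clone (3787, 1219 and 150). These genes thus read below the EGFP clone on the EGFP array alone. Over the 28074 tested probes with Cy5 above background on both arrays, 380 had readings at least 2-fold apart, and in 257 of these Cy3 was shifted the same way by at least 2-fold, in 7 the opposite way. The median difference of the Cy5 readings, Oct4 array minus EGFP array, was 0.60 on the log2 scale for the 95 probes with Cy3 at least 8-fold higher on the Oct4 array and -0.01 for the 23239 probes with Cy3 within 2-fold. Some members with a strong difference in Cy3 had even Cy5 readings, such as Adcy10 (295 and 258) and Slc12a8 (106 and 104). The part of this shift in the ratios was not tested.

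**Figure D2:**
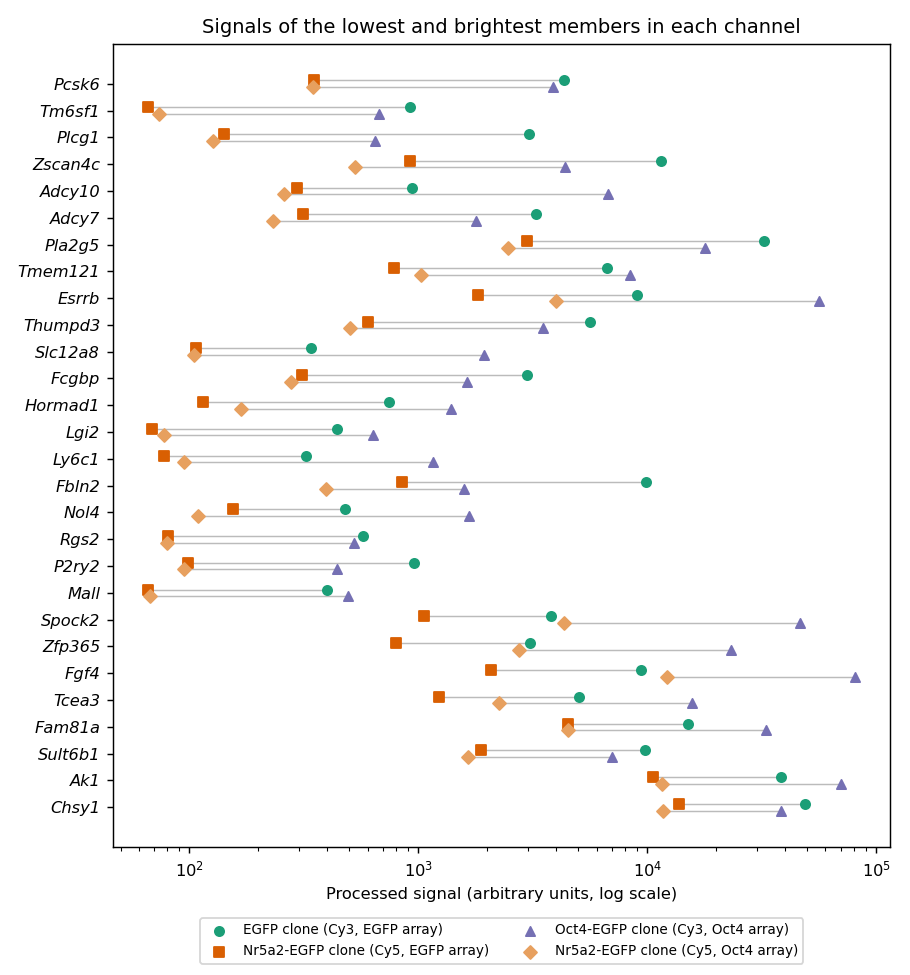
Processed signal in each channel, on a log axis, for the 28 members named for their low ratio or their high Cy3 signal and with Cy5 above background on both arrays, sorted by mean ratio; grey lines join the channels of 1 array. Both readings of the Nr5a2-EGFP clone lie left of their Cy3 partner for every gene, and the readings of Fgf4 (2067 and 12175) and Spock2 (1059 and 4320) lie farther apart than those of Pcsk6 (350 and 347).

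Genes of the 2-cell-like state gave 4 members of 17 tested, against 1.29% of all tested genes: Zscan4c, Zscan4e, Zscan4f and Tcstv1. The Zscan4 genes are near-identical copies in a cluster, so they are not separate hits, and the difference was not tested. Zscan4c, a zinc finger and SCAN domain gene expressed in bursts with telomere elongation, read 11448 in the EGFP clone against 921 in the Nr5a2-EGFP clone, and 4358 in the Oct4-EGFP clone against 531. It was 12.4-fold and 8.21-fold lower, and its second member probe had log2 ratios of -3.66 and -3.15. Another Zscan4c probe, dim and not above background in Cy5 on the Oct4 array, had -0.83 and -0.93. Zscan4e read 572 against 54.7 and 186 against 34.4, at least 2.42-fold lower on the Oct4 array where Cy5 was not well above background. Zscan4f read 386 against 19.5 and 85.1 against 22.6, at least 4.02-fold and 1.57-fold lower. The Zscan4 signals were higher in the EGFP clone than in the Oct4-EGFP clone, by 2.22-fold for Zscan4c in Cy3, so their order was the opposite of that of Esrrb and Fgf4.

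Tcstv1, a gene of the 2-cell stage with no mapped probe position, read 262 against 66.5 and 212 against 51.9. AF067061, which lies on unplaced sequence and was chosen after its values were seen, read 956 against 113 and 813 against 96.0, but its other probe gave -0.29 and 0.14. Elsewhere in the list, Arg2 (-1.75 and -1.35) and Gm5662 (-1.97 and -1.37) were lower without reaching the rule on both arrays. Dux, a transcription factor that induces the state, had 0.57 and 0.15, Zfp352 1.11 and 0.45, and the Tdpoz genes were within 2-fold. Gm4340 had -1.87 and -0.68. Of the list's 17 genes, 7 were at least 2-fold lower on the EGFP array (7.62% of all tested genes) and 6 on the Oct4 array (8.87%), and its median was -0.14 and -0.39.

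The Zscan4 members lay together on chromosome 7, with first bases of their probes from 11382955 to 12199314 in mm9, beside LOC100045495, NAP104573-1 and Gm4186, the last now named Zscan4-ps3. These 6 were among 13 tested genes in the interval, counted by array name. The probes of Zscan4f and NAP104573-1 start at 11987608 and 11987996 with no tested gene between, so whether they read separate genes is unknown. LOC100045495 read 1302 against 81.9 and 966 against 64.3, which is 15.9-fold and 15.0-fold lower, and Gm4186 read 4914 against 373 and 2152 against 253. Of the 15 other tested probes in the interval drawn around Zscan4c, 13 were within 2-fold on both arrays. The members' probes are shown where they resemble each other, because such a probe may bind more than 1 of these copies. The Zscan4c and Gm4186 probes share 58 aligned bases with 2 mismatches, and the Zscan4f and Zscan4-ps1 probes 58 with 6. In each pair of lines, 30 bases of each probe are given, and capitals mark bases that differ from the line above.
Zscan4c: aaatgcattgcctcttcagacatctcatgc
Gm4186: aaatgcattgcctcttcagacatctcatAT
Zscan4f: gttgcaagtaaattgtactgtcccaataat
Zscan4-ps1: gttgcTaCtaaattgtactTtcccaatGat
The Zscan4c probe shown is its second member probe. It lies at chr7:11595751-11595810, the Gm4186 probe at chr7:12199314-12199373, the Zscan4f probe at chr7:11987608-11987667 (all + strand) and the Zscan4-ps1 probe at chr7:11650658-11650717 (- strand). Zscan4-ps1, a pseudogene whose Cy3 signal was not well above background on both arrays, had log2 ratios of -1.66 and -0.84. Which copies the signals come from is uncertain.

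A second group of repeated genes lay on chromosome 12, from base 88858331 to 89559183, where 5 of 25 tested genes were members: LOC640794, BB287469, Gm2046, LOC641136 and Gm5039. BB287469, non-coding in the array's annotation and coding in RefSeq, read 2957 against 392 and 1142 against 249, 7.55-fold and 4.59-fold lower. LOC641136 read 2282 against 335 and 923 against 204, and its second probe, 283379 bases away, had a log2 ratio of -2.89 on the EGFP array and was at least 2.15-fold lower on the Oct4 array. Gm2046 had 2 member probes as well, and Gm5039 1 of 2, the other reading -1.03 and -0.20. The second LOC641136 probe starts at 89559444, between the Gm5039 probes at 89559183 and 89559634. Whether that probe and the Gm5039 probes read separate genes is unknown. Like the Zscan4 genes, these members were higher in the EGFP clone than in the Oct4-EGFP clone, by 2.21-fold for BB287469. The probes again resemble each other.
Gm5039: gccattccatttgtgacctttcatttgtag
Gm2046: gAcattccatttgtgacctttcatttCtag
LOC640794: gctcttaagtaaaacttcatttggcatgag
LOC641136: gctGttaaAtaTaacttcatttggcatACT
These are 30 bases each of probes at chr12:89559183-89559242 (- strand), chr12:89218929-89218988 (+), chr12:88858331-88858390 (+) and chr12:89276065-89276124 (-) of mm9. The full probes share 48 aligned bases with 3 mismatches in the first pair and 59 with 8 in the other. Neighbours were not low as a block: of the 33 other tested probes in the interval drawn, 5 were at least 2-fold lower on both arrays, 16 within 2-fold on both, and 7 at least 2-fold higher on either. Gm16368 (-1.55 and -2.12), Gm5662 (-1.97 and -1.37) and Gm1995 (-2.32 and -1.15) passed the threshold on 1 array each.

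**Figure D3:**
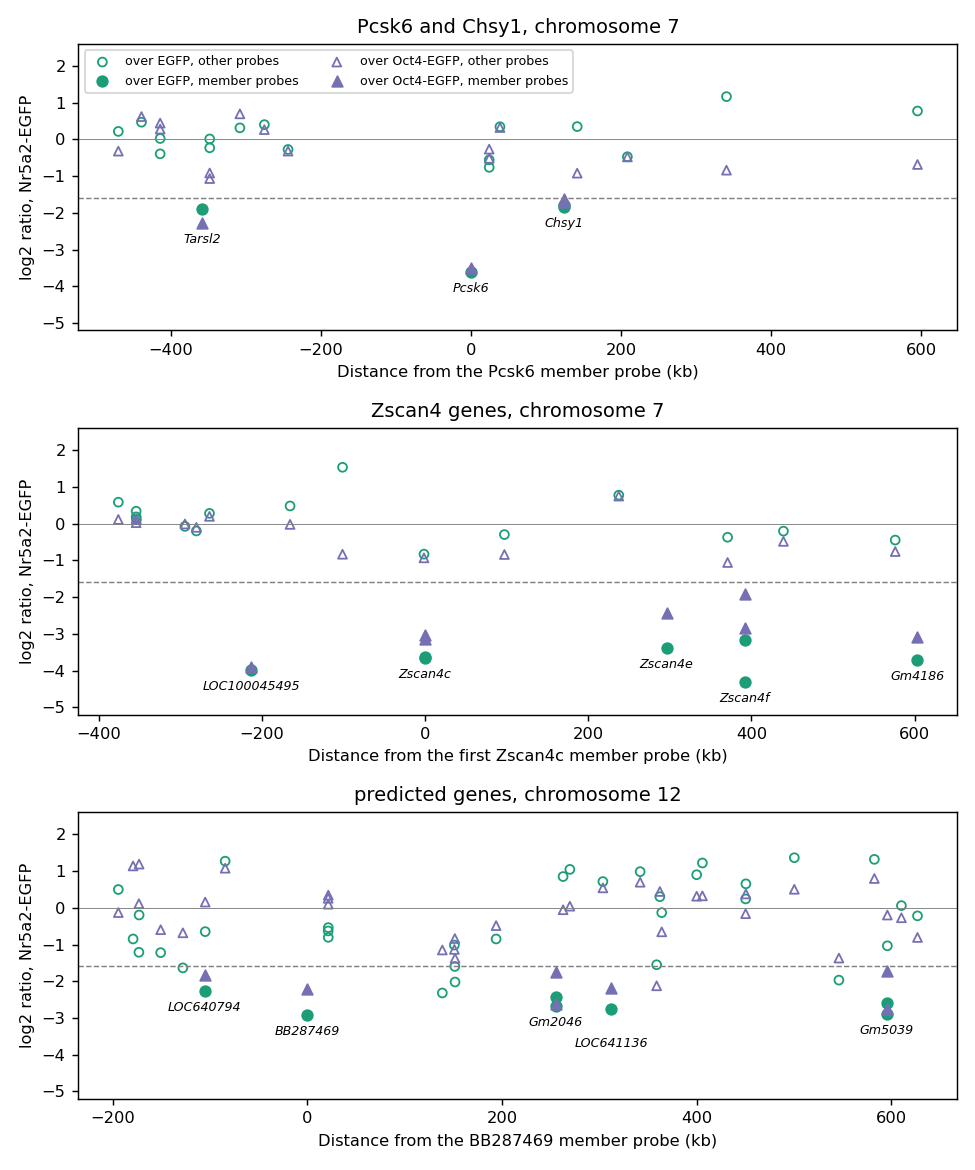
Log2 ratio of the Nr5a2-EGFP clone over the EGFP clone (circles) and over the Oct4-EGFP clone (triangles) for every tested probe around 3 groups of neighbouring members, against the distance in kb from 1 member probe; filled symbols are member probes, open symbols all others, and the dashed line is a 3-fold lower level. Snrpa1 and H47 sit within 2-fold between Pcsk6 and Chsy1, 13 of 15 other probes around Zscan4c stay within 2-fold, and the chromosome 12 group is mixed with probes above 0.

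Secreted and matrix proteins are described next, gene by gene. Pcsk6, a proprotein convertase that cleaves TGF-beta family precursors such as Nodal and Lefty, read 4304 in the EGFP clone against 350, and 3884 in the Oct4-EGFP clone against 347. The Nr5a2-EGFP clone gave close levels on both arrays and the other clones differed by 1.02-fold in Cy3, so the gene was 12.3-fold and 11.2-fold lower, or 10.1-fold and 9.77-fold after loess and Aquantile normalization. It was 1 of the 2 genes at least 10-fold lower on both arrays with Cy5 above background, the other being LOC100045495. The first 30 bases of its only probe, at chr7:73195141-73195200 (+ strand, mm9), are shown because the value rests on it alone.
Pcsk6: ctgttgaatccacacttcaaataagaaatc

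Pcsk6 lay in a group with Tarsl2 and Chsy1 on chromosome 7, among 9 tested genes within 0.482 Mb. Chsy1, which polymerises chondroitin sulfate, read 49008 against 13765 and 38166 against 11745, 3.56-fold and 3.25-fold lower. Its 2 member probes share 44 bases and are not independent. Tarsl2, a threonyl-tRNA synthetase-like gene, was at least 2.04-fold lower than in the EGFP clone and read 480 against 99.1 on the Oct4 array. Between Pcsk6 and Chsy1, the splicing gene Snrpa1 had -0.76 and -0.51 at 1 of its probes and H47 0.35 and 0.33, so the members did not form an unbroken stretch of low genes.

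The list of extracellular matrix and mesenchymal genes had 3 members of 49 tested, against 1.29% of all tested genes. Fbln2, a fibulin of basement membranes and elastic fibres, read 9854 against 849 and 1586 against 394, 11.6-fold and 4.03-fold lower. Efemp2, another fibulin, read 7431 against 2000 and 5493 against 1730. Vcan, the proteoglycan versican, rested on a dim probe, at least 2.04-fold and 1.05-fold lower, and its other 2 probes lay between -0.56 and 0.45. Fbln2 was 5.18-fold higher in the EGFP clone than in the Oct4-EGFP clone, and Efemp2 was within 2-fold. Spock2, a secreted calcium-binding proteoglycan, read 3787 against 1059 and 46524 against 4320, 3.58-fold and 10.8-fold lower.

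Of 41 tested proprotein convertases and metalloproteases, Pcsk6 and Dpp4 were members, against 1.29% of all tested genes. Dpp4, a membrane peptidase, was nearly dark in the EGFP clone (63.9 against 16.3, at least 1.23-fold) and bright in the Oct4-EGFP clone (2947 against 189, 15.6-fold). Phospholipases gave 2 members of 36. Pla2g5, a secreted phospholipase A2, read 32458 against 2993 and 17826 against 2458, 10.8-fold and 7.25-fold lower, and its other probe was lower too, at -1.57 and -1.27. Tm6sf1, a multi-pass membrane protein, read 923 against 66.1 and 675 against 73.9, and its second member probe was 5.81-fold lower and at least 5.31-fold lower after normalization. Tmem121 had 2 member probes with ratios between -3.04 and -3.49, which share 55 bases.

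Several of the members with the lowest ratios encode signalling proteins, described here gene by gene. Plcg1, phospholipase C gamma, which receptor tyrosine kinases activate, read 3029 against 142 and 646 against 127 at its member probe, 21.4-fold and 5.08-fold lower. A second Plcg1 probe read 481 against 289 and 446 against 291, log2 ratios of -0.74 and -0.62. The probes lie apart on chromosome 2, at chr2:160587142-160587201 and chr2:160601437-160601496 (both + strand, mm9), and the sources used here do not give the exons they sit in. Their first 30 bases are given since the gene's result depends on which is used.
Plcg1, member probe: atgtttagtgaccagaacttcttggctcag
Plcg1, other probe: atagagccagagatgtgcacaaaaatacaa

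The adenylyl cyclases among the named members, Adcy7 and Adcy10, had different patterns. The rule chose them for their low ratios, and how many adenylyl cyclases were tested is not given here. Adcy7, a membrane cyclase, read 3260 against 312 and 1788 against 232, 10.4-fold and 7.71-fold lower. Adcy10, the soluble cyclase, read 941 against 295 and 6758 against 258, 3.19-fold and 26.2-fold lower. The Oct4-EGFP clone had 7.57-fold more Adcy10 signal than the EGFP clone at this probe. The other Adcy10 probes went against it: 1 read 9.20 against 97.3 and 8.68 against 88.5, log2 ratios of 3.40 and 3.35 with Cy3 not well above background, and another had 0.72 and -0.41. The probes of this gene thus disagreed in direction. P2ry2, a nucleotide receptor coupled to G proteins, read 953 against 98.8 and 439 against 94.3. Rgs2, which shortens G protein signals, read 572 against 80.7 and 524 against 80.1. Vav1, a guanine nucleotide exchange factor of blood cells, read 3766 against 434 and 806 against 218. Its second member probe, 16019 bases away, was dim in Cy5 and at least 2.11-fold and 1.97-fold lower.

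Receptors outside the rule for named genes are given because of their role, and were chosen after their values were seen. Ret, a receptor tyrosine kinase for GDNF ligands, had the lowest mean ratio of all members, with 1129 against 31.2 and 316 against 9.35, but Cy5 was not well above background, so it was at least 10.4-fold and 3.82-fold lower. Egfr read 1218 against 309 and 1694 against 349, with its other 2 probes between -0.52 and -1.04. Ngfr, a neurotrophin receptor measured on 10 spots of each array, read 1219 against 383 and 13712 against 1624. Ifngr1, a chain of the interferon gamma receptor, read 6571 against 1976 and 5723 against 1750, nearly even in the other clones.

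LIF and JAK-STAT3 genes had 2 members of 23 tested. For this list and the next, the share among all tested genes was 1.29%. Il6ra, the interleukin 6 receptor chain, read 2748 against 519 and 3052 against 555, 5.29-fold and 5.50-fold lower. Stat5a, a cytokine-activated transcription factor, read 5620 against 1798 and 5629 against 1706, 3.13-fold and 3.30-fold lower. Both were within 2-fold between the EGFP and Oct4-EGFP clones. Of 28 FGF and ERK feedback genes, 3 were members, and besides Fgf4 these rested on dim signals: Dusp4, an ERK phosphatase, at least 1.70-fold and 2.33-fold lower, and Spry4, an inhibitor of receptor tyrosine kinase signalling, at least 1.09-fold and 2.91-fold. The list's median ratio was -0.13 and -0.65.

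Wnt pathway genes gave 3 members of 52, against 1.29% of all tested genes, and the list as a whole had medians of 0.09 and 0.15. Rspo1, a secreted enhancer of Wnt signals, read 5642 against 1245 and 5681 against 1213, 4.53-fold and 4.68-fold lower. Sfrp2, a secreted Wnt antagonist, read 3634 against 794 and 4543 against 791, 4.58-fold and 5.74-fold lower. Nkd2, an intracellular antagonist, read 531 against 27.8 and 219 against 47.4. The 27.8 lay below 42.6, the lowest Cy5 signal well above background on the EGFP array, so only a bound holds there. Its other probe read 18965 against 27831 and 17873 against 22745, log2 ratios of 0.55 and 0.35. Rspo1 and Sfrp2 had close Cy5 readings on both arrays, and the Nkd2 probes disagreed. Dll3, a Notch ligand, had 2 member probes at the edge of the rule, with ratios of -1.59 and -1.64 over EGFP.

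Of 15 tested primitive streak and mesoderm genes, 3 were members, against 1.29% of all tested genes, and 1 of the 3 rests on a dim Cy5 signal. Foxc2, a forkhead factor of mesenchyme, read 446 against 104 and 519 against 105. Msgn1, a factor of presomitic mesoderm, read 737 against 63.1 and 201 against 65.4, 11.7-fold and 3.08-fold lower. Lmo2, a blood and endothelial cofactor, was at least 1.42-fold and 2.66-fold lower. Etv2, which specifies blood and endothelium and was chosen after its values were seen, read 3299 against 483 and 1167 against 319, with its other probe at -2.30 and -1.49. The germline list had 1 member of 39, Hormad1, a meiotic chromosome axis gene, which read 747 against 114 and 1390 against 169. Its second probe was dim in Cy5, at least 1.16-fold and 1.67-fold lower.

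Enzymes and carriers were members as well. Solute carriers by symbol had 10 members of 288 tested (3.47%, against 1.29% of all genes), with no test of the difference. Slc12a8 read 341 against 106 and 1942 against 104. Ak1, adenylate kinase, read 38323 against 10566 and 70391 against 11619, 3.63-fold and 6.06-fold lower. Abcg1, a cholesterol exporter, read 3726 against 760 and 7240 against 1056. Sult6b1, a sulfotransferase, read 9773 against 1879 and 6982 against 1650, and Ddah1, which degrades methylated arginines, had 2 member probes 40651 bases apart with ratios between -1.69 and -2.74. Thumpd3, an RNA-binding protein that acts in tRNA methylation, read 5602 against 604 and 3514 against 502, log2 ratios of -3.21 and -2.81. Fcgbp, a mucin-like secreted protein, read 2993 against 310 and 1623 against 279.

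Members named by the rule that remain differed in which other clone was higher. Zfp365, Tcea3, Fam81a, Ly6c1 and Nol4 were higher by 2-fold or more in the clone with Oct4-EGFP, with log2 ratios over it between -2.80 and -3.92. For Ly6c1 the other probe had 0.41 and 0.12. Lgi2 and Mall were within 2-fold, with ratios between -2.59 and -3.03. Cldn11, a tight junction gene, was the 1 member of 36 in the list of claudins and simple epithelial genes, at least 2.20-fold lower than in the EGFP clone and 10.4-fold lower than in the Oct4-EGFP clone. Hist1h2bp (now H2bc22) was the 1 of 38 histone genes, at least 1.90-fold and 1.86-fold lower. Of all tested genes 1.29% were members, so nothing is read from these list counts.

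In all, 14 of the 28 gene lists held a member and 14 held none. The lists without one were cyclins and their inhibitors, trophoblast, imprinted, laminins, p53 targets, Nr5a2 targets, primitive endoderm, neural, interferon and MHC, glycolysis, actin and contractile, cadherins and integrins, DNA methylation, and reference genes. By symbol, potassium channels (0 of 59), cytochromes P450 (0 of 61), keratins (0 of 47) and ribosomal proteins (0 of 86) held none either. With 1.29% of all tested genes as members, groups of these sizes would hold about 1 or none, so nothing is read from the zeros. Olfactory receptors held 2 of 472 (0.424%), and symbols of the model or clone type (Gm, Rik, LOC and the like, some of which RefSeq has since renamed) 78 of 8924 (0.874%). Of the 304 members 257 matched a RefSeq gene, 240 of them coding and 11 long non-coding.

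The dye is the same when the EGFP and Oct4-EGFP clones are set against each other in Cy3. By that comparison 204 members were within 2-fold, 75 were higher by 2-fold or more in the clone with Oct4-EGFP (24.7%, against 8.34% of tested genes) and 25 at least 2-fold higher in the EGFP clone (8.22%, against 7.46%). The rule used these Cy3 signals, so nothing is read from the shares. Dpp4 (24.4-fold), Spock2 (14.3-fold), Gdf3 (12.1-fold) and Fgf4 (at least 9.56-fold, its Oct4-EGFP spot being saturated) were among those higher in the Oct4-EGFP clone, and Fbln2 (5.18-fold), Vav1 (3.96-fold) and Plcg1 (3.81-fold) among those higher in the EGFP clone.

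**Figure D4:**
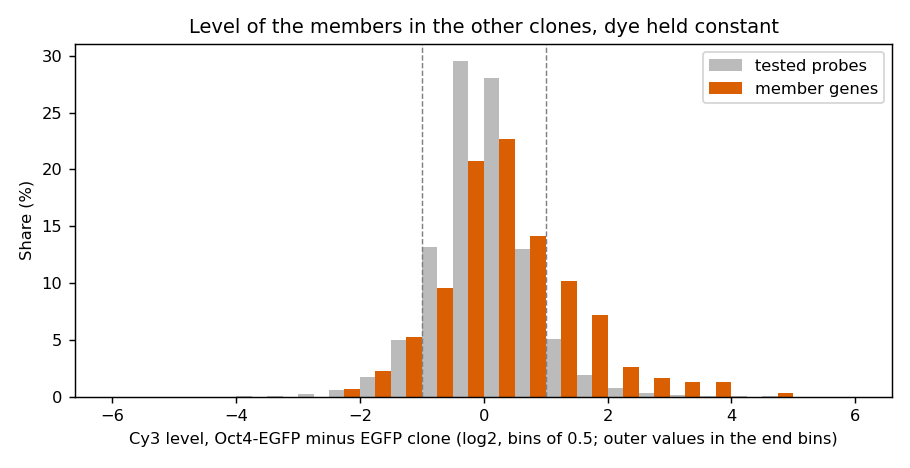
Share of member genes (orange) and of all tested probes (grey) by the log2 difference of the Cy3 level, Oct4-EGFP clone minus EGFP clone, in bins of 0.5; dashed lines mark 2-fold. Of the members 24.7% lie to the right of the right-hand line and 8.22% to the left of the other, with a median of 0.26 for members and -0.01 for tested probes.

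Members came from every autosome. Their share of tested genes ran from 0.726% on chromosome 14 to 1.72% on chromosome 19, and chromosome 7 held the most, 34 of 2014 (1.69%). Of 298 members with a position, 114 had another member within 1 Mb, and 8 groups of at least 3 such neighbours held 32 genes. Besides the 3 groups described, these lay on chromosome 7 from base 28440933 to 29671784 (Ttc9b, C030039L03Rik, Fcgbp, Dll3 and Capn12, 5 of 55 tested genes), and on chromosomes 9, 10, 11 and 17. The group on chromosome 17 held Dnahc8, 2900001G08Rik, Abcg1 and 4833413E03Rik (4 of 19), that on 10 Traf3ip2, Gm8903 and Slc16a10 (3 of 12), that on 11 Myadml2, Cd7 and Fn3k (3 of 31), and that on 9 AA408954, Hspb2 and ENSMUST00000050829 (3 of 18). Tested genes that were no members lay within each of these groups. Ttc9b, Dnahc8, 4833413E03Rik, Gm8903, Myadml2 and Fn3k had Cy5 below 42.6 on the EGFP array and below 46.4 on the Oct4 array. Those were the lowest Cy5 signals well above background, so only bounds hold for these genes. A second, brighter 4833413E03Rik probe had log2 ratios of -0.26 and -0.52. In only 7 pairs were 2 members next to each other with no tested gene between, and Zscan4f with NAP104573-1 was 1 of them. No matching counts for all tested genes are given here, so no clustering is read from these numbers.

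Whether other probes of a gene read alike could be seen for some members only. There was 1 tested probe for 217 genes. Of the 87 with several, all tested probes met the rule in 13. The 87 other tested probes of member genes had medians of -0.26 and -0.41, 52 were within 2-fold on both arrays, 9 were at least 2-fold lower on both and 7 at least 2-fold higher on either. Named members whose other probes were within 2-fold on both arrays include Msi2 (-0.25 and 0.30), Sgcb (-0.59 and -0.74), Capn12 (-0.51 and 0.63), Fn3k (0.54 and -0.61) and Sned1 (0.51 and 0.52). Of the 3 other Synm probes, 1 was lower on the Oct4 array alone (-0.64 and -1.93). Of the 2 other Dnahc8 probes, 1 was lower on the EGFP array alone (-1.20 and 0.67) and the other higher on the Oct4 array (-0.15 and 1.24). Of the 17 genes with 2 member probes, those of 4 (Chsy1, Msi2, Mst1 and Tmem121) share at least 30 bases. The other 13, among them Zscan4c, Tm6sf1, Hormad1, Vav1, Ddah1, Elavl2, Synm, Sgcb and A430089I19Rik (now Pramel39), shared no stretch of 30 bases. Shorter overlaps were not excluded. The 2 probes start only 40 bases apart in Hormad1, 61 in Zscan4c and 63 in A430089I19Rik, so these readings may not be independent. Member probes had a median GC content of 40.0%, against 43.3% for tested probes.

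RefSeq promoters (GRCm38.p6) were found for 195 member symbols, and the 250 bases before the start were searched on both strands for the core of the site that Nr5a2 and Esrrb bind, AAGGTCA. It occurred in 13 of the 195 (6.67%) and in 510 of 13367 tested symbols (3.82%). The longer CAAGGTCA, a subset of these, occurred in 7 (3.59%, against 1.35%), and TCAAGGTCA in Efemp2 alone (0.513%, against 0.329%). Zscan4c and Zscan4f count separately although 226 of 227 aligned bases of their promoters are identical. Members had a median of 11 CpG in the window and tested symbols 13. A match shows only that the letters are there. The promoters below are shown because Zscan4c, Zscan4f, Efemp2 and Stat5a were low in the clone carrying Nr5a2-EGFP and hold the core, in capitals on either strand.
Zscan4c, chr7:11005495-11005744 (+): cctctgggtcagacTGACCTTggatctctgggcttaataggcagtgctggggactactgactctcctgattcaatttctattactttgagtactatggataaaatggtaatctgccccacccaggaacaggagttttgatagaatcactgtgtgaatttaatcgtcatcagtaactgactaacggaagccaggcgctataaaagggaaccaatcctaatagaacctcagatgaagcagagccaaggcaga
Zscan4f, chr7:11397665-11397914 (+): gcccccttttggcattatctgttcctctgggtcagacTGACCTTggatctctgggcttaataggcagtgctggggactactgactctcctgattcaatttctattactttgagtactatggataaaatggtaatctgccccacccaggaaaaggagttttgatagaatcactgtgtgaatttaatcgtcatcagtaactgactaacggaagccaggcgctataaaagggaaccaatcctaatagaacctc
Efemp2, chr19:5474440-5474689 (+): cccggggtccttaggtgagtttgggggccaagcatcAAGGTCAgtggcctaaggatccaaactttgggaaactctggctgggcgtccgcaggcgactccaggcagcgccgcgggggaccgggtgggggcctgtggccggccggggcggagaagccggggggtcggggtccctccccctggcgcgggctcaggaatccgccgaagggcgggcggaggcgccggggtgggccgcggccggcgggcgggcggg
Stat5a, chr11:100860234-100860483 (+): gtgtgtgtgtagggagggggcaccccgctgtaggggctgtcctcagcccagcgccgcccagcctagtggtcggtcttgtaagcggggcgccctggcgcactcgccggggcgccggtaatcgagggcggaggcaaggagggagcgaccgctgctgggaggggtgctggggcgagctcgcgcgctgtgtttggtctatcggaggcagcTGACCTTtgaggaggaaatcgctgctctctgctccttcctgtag
The core ended 229 bases before the start in Zscan4c, 206 in Zscan4f, 207 in Efemp2 and 37 in Stat5a.

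At the edge of the rule, the members just inside included Dll3 (-1.59 over EGFP and -2.09 over Oct4-EGFP at this probe) and Gm7167 (-1.59 and -1.84). The genes just outside were Ldhd (-1.58 and -3.70), Kbtbd8 (-1.58 and -1.60) and 4933406J08Rik, now Terb2 (-2.19 and -1.58).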

How the data were processed

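Processed signals are intensity values that the authors deposited as scanner output; per the file headers, Agilent Feature Extraction 10.7.3.1 detrended the signals (spatially and multiplicatively) and normalized the dyes within the array (the submitters' processing notes name 9.3.2.1), and probe positions are mm9. The deposited log10 ratio of the same software was not used. The deposited series table holds log2 ratios of Cy5 over Cy3, of unstated centring, an alternative here. Control spots were left out and spots of a probe averaged, each array holding 43020 spots. A gene is given by its member probe of highest Cy3 signal. Alternatives used limma 3.58.1 (R 4.3.3): normexp with offset 50, loess and Aquantile. With 1 array per pair, precision cannot be estimated and no test was run. The rule was run on simulated folds with little noise, no background floor and no dye bias. That run checks the calculation only and says nothing about dim members. Members and lists were chosen with earlier results of these data known. Genes named are the 20 members of lowest mean ratio with Cy5 above background and the 10 of highest Cy3 signal. Also named are those in a list, with 2 member probes, in a run or at the threshold. Any other is said to be chosen later. Runs came from windows of 1 Mb, and overlapping windows were joined, so the run from base 28440933 of chromosome 7 spans 1.23 Mb. RefSeq symbols were matched by accession, symbol or synonym. Some results are not reported here.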

Additional observations from a re-analysis of the deposited data

Results flagged for a closer look

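The rule left out the sex chromosomes and took 321 of the 28833 tested probes elsewhere. On chromosome X 11 of 1170 tested probes (0.94%), and on chromosome Y 0 of 78, were at least 3-fold lower on both arrays. With Cy5 well above background on both arrays, these included Glod5, a glyoxalase domain gene (3436 against 690 and 4114 against 764), and Tnmd, which encodes tenomodulin (432 against 105 and 3003 against 118, on 10 spots of each array). Rhox1 and Xpnpep2 were dim.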

How the results depend on the processing

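The count of 304 members moved to 101 with normexp and loess, all of them among the 304, to 174 when Cy5 also had to be well above background, to 933 at 2-fold and to 156 at 4-fold. The median ratio moved to -1.39 (EGFP array) and -1.71 (Oct4 array) with normexp and loess. Median centring (325), the deposited value table (301, 298 of them shared), leaving out outlier and saturated spots (303), no Cy3 filter (356), every probe of a gene (230), the mean over its probes (241) and, added after seeing the data, bounds in place of ratios (210) stayed within 1.5 times. Of 166 ratios of named genes, 96 moved toward 0 with normexp and loess and none reversed. Signal over background in Cy5 limits 130 members. No paired analysis was possible because there was 1 array per pair of clones, and no replicate could be left out.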
